A study of Mus musculus with 28 samples.

Results

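Livers of MDKO mice, in which the myeloid cells are meant to lack both NFATc3 and ASK1, were compared with livers of NFATc3-MKO mice, whose myeloid cells are meant to lack NFATc3 alone. The comparison asks what the loss of ASK1 adds on a background already without myeloid NFATc3. It rests on 8 of the 28 samples of the study, 4 livers per group, and on every gene that passed an expression filter, which left 13309 of the 17752 genes in the liver table. The rule used no measured difference between the groups.

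NFATc3 is a transcription factor that enters the nucleus once the calcium-dependent phosphatase calcineurin has removed its phosphates. ASK1, encoded by Map3k5, is a kinase at the head of the stress pathways that lead to JNK and p38, and the reduced form of thioredoxin holds it inactive. A diet without methionine and choline blocks the export of fat from hepatocytes, so that fat, inflammation and scar tissue build up in the liver. In that setting resident macrophages (Kupffer cells) can be replaced by recruited monocytes, and stellate cells turn into matrix-producing myofibroblasts.

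The study sequenced messenger RNA from 16 livers and, in cultures not analysed here, from 12 samples of macrophages grown out of bone marrow. All 16 livers came from male mice that were 8 weeks old when a methionine- and choline-deficient diet began and that were fed it for 4 weeks. The genotypes were Lyz2-Cre (the controls), NFATc3-MKO, ASK1-MKO and MDKO, with 4 livers each. Cre under the Lyz2 promoter acts in macrophages, monocytes and neutrophils, so hepatocytes, stellate cells, bile duct cells and endothelium keep both genes. The labels name Lyz2-Cre only for the controls, and which floxed alleles the knockouts carry, the time of day at which livers were taken and whether each liver came from a separate animal are not stated in the labels. The p-values below therefore measure the spread between these samples, which may in part be technical. Hepatocyte markers summed to 84600 to 131000 CPM (read counts scaled to a common library size) in the NFATc3-MKO livers and 139000 to 147000 in the MDKO livers. In whole tissue, fewer cells of a type and less RNA per cell cannot be told apart. The count table summed to 20601168 to 30834547 per liver except for MDKO replicate 3, with 8912117, so that library gives the least precise values.

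The likeness of the livers was examined before any gene, because it bears on how the differences are read. With every library thinned to 8891627 reads, the spread between a pair of livers over 10913 genes was divided by the spread that counting noise alone gives. The 16 pairs of an MDKO with an NFATc3-MKO liver stood at 5.24 to 18.9 times counting noise (median 8.22), pairs within NFATc3-MKO at 4.98 to 16.1 (median 8.89) and pairs within MDKO at 2.62 to 8.11 (median 4.89). The 4 closest of all 120 pairs each joined an MDKO liver to the Lyz2-Cre liver of the same number, at 1.33 (replicate 3), 1.85 (replicate 2), 1.93 (replicate 4) and 2.25 (replicate 1). They differed by more than counting noise but by less than any pair of livers of 1 group, where the lowest value was 2.62. No gene was called between MDKO and Lyz2-Cre livers by edgeR's quasi-likelihood test, with 35 at an unadjusted p under 0.05. Deviations from the group means were correlated between MDKO and Lyz2-Cre livers sharing a number (r = 0.528, 0.508, 0.259 and 0.239 for replicates 1 to 4). Between NFATc3-MKO and Lyz2-Cre livers the same correlations were 0.231, 0.561, −0.206 and −0.0163. A fit of the MDKO and Lyz2-Cre groups with the replicate number as a block, added after seeing the data, also called 0 genes. In that fit 186 of 12746 genes stood at an unadjusted p under 0.05. Each MDKO liver was closer to its same-numbered control than to any liver of its own group. With the Lyz2-Cre livers left out of the fit, 663 genes were called between MDKO and NFATc3-MKO livers in place of the 978 given below. Neither the origin of this likeness nor its part in the results below was tested.

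**Figure D1:**
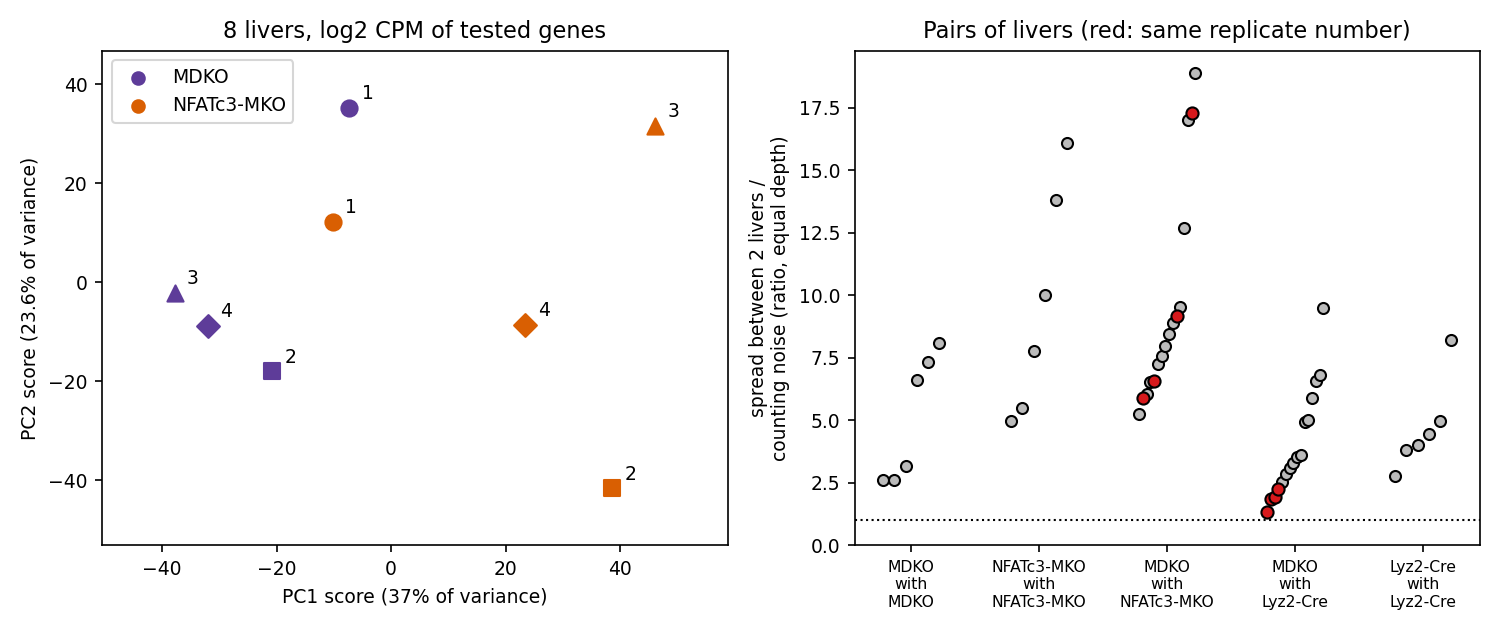
Left, scores of the 8 livers on the first and second principal components of log2 CPM (37% and 23.6% of the variance), with numbers giving the replicate. Right, the spread between pairs of livers at equal depth as a ratio to counting noise (dotted line at 1), with same-numbered pairs of different groups in red. NFATc3-MKO replicate 1 lies at −10.2 on the first component, among the MDKO livers, and the red points of MDKO with Lyz2-Cre lie lowest, at 1.33 to 2.25.

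On the first principal component of the 8 livers, MDKO livers lay at −37.8 to −7.32. NFATc3-MKO replicates 2, 3 and 4 lay apart at 38.6, 46.1 and 23.4, whereas NFATc3-MKO replicate 1 lay at −10.2. NFATc3-MKO replicate 1 can therefore be read apart where values are given liver by liver. For genes given only as a change, its place is not always stated, and it may lie with the MDKO livers.

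The targeted genes were read first. Nfatc3 (chromosome 8, 106058840 to 106130537 in mm10) stood at 29.8, 37.5, 39.8 and 39.1 CPM in MDKO replicates 1 to 4 and at 31.5, 31.1, 19.6 and 30.9 in NFATc3-MKO replicates 1 to 4. The groups overlapped, and the difference did not pass the threshold (log2 change, MDKO minus NFATc3-MKO, 0.37 ± 0.14 SE, edgeR adjusted p = 0.114, two-sided exact permutation p = 0.114, where 0.0286 is the smallest p that 4 against 4 livers allow). Map3k5 (chromosome 10, 19934472 to 20142753) stood at 28.2, 32.3, 29.3 and 32.4 CPM in MDKO replicates 1 to 4 and at 43.9, 27.4, 24.1 and 29.5 in NFATc3-MKO replicates 1 to 4. NFATc3-MKO replicate 1 was the highest of the 8 and the others overlapped, so Map3k5 RNA was not detectably lower in the livers meant to lack ASK1 in their myeloid cells (log2 change −0.03 ± 0.15 by edgeR, with an adjusted p = 0.925, and p = 1 by the exact permutation test). Whole liver holds many cells in which the deletion is not meant to occur, and neither value checks the genotype of the myeloid cells. Directions below refer to the libraries as labelled.

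Across all genes, MDKO livers held more RNA than NFATc3-MKO livers for 9 of 16 heat shock and cold-inducible genes, for 5 of 17 fatty acid desaturases and elongases, for 4 of 11 Kupffer cell markers and for 6 of 19 hepatocyte transcription factors. They held less for 4 Sult2a sulfotransferases, for 3 of 6 neutrophil markers and for 3 of 31 genes of the matrix. Other members of these lists did not pass. Clock genes moved in opposite directions, with Cry1, Per2 and Nfil3 higher and Nr1d1, Nr1d2 and Dbp lower. By edgeR's quasi-likelihood test, called at a p under 0.05 after Benjamini-Hochberg adjustment across the genes tested, 540 genes rose and 438 fell. These 978 genes are 7.35% of those tested (4.06% rose, 3.29% fell), and 111 of those that rose and 120 of those that fell did so by at least 2-fold (1.74%). The median log2 change was −0.03 over all genes, 0.72 over the genes that rose and −0.69 over those that fell.

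The groups did not overlap in 837 of the 978 called genes (85.6%), against 12.7% of all genes tested. Among the 141 called genes with overlap, NFATc3-MKO replicate 1 lay within the MDKO range in 68 and MDKO replicate 1 within the NFATc3-MKO range in 95, the most for their groups. The mean of the MDKO livers lay within the range of the 4 Lyz2-Cre livers in 911 of the called genes (93.1%), and the mean of the NFATc3-MKO livers in 10 (1.02%). Over all 13309 genes tested these counts were 12196 and 6774, so the MDKO share of the called genes was close to that of all genes. The called genes were picked for a difference between NFATc3-MKO livers and MDKO livers, which resembled the Lyz2-Cre livers. The low count for the NFATc3-MKO mean follows from that choice. The count of calls rested on few livers: it was 335 without MDKO replicate 3, 346 without MDKO replicate 4 and 567 without NFATc3-MKO replicate 3, and a fit of these 8 livers alone gave 283. It was 540 without NFATc3-MKO replicate 1 and MDKO replicate 3 together, 1628 by DESeq2 and 2653 by limma's voom.

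**Figure D2:**
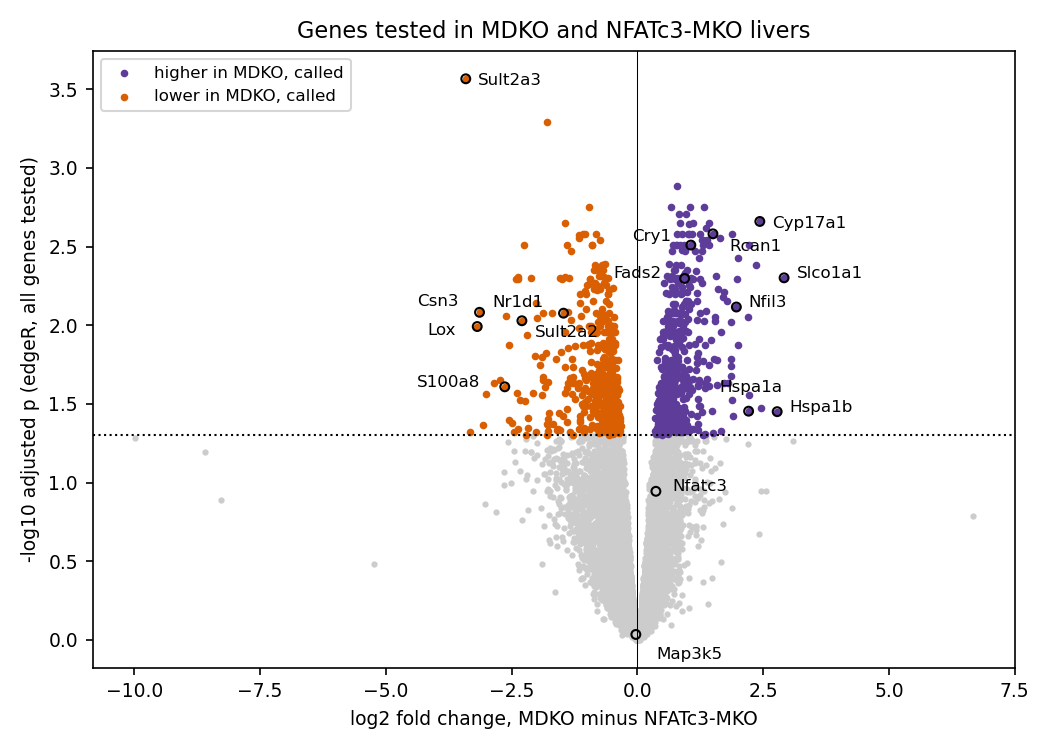
Each point is 1 of the 13309 genes tested, with the log2 fold change (MDKO minus NFATc3-MKO) on the x axis and −log10 of the edgeR adjusted p on the y axis, on which the dotted line marks 0.05. Purple points are the 540 genes that rose and orange points the 438 that fell; Sult2a3 has the smallest adjusted p (0.000271), and Nfatc3 and Map3k5 lie below the line.

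Heat shock genes formed the group with the largest share of called members. Chaperones of this kind fold and refold proteins and are switched on by the heat shock factor HSF1. Of 16 heat shock and cold-inducible genes tested, 9 rose and 1 fell, with a median log2 change of 0.79 against −0.03 over all genes. Hspa1b and Hspa1a, adjacent genes for the inducible HSP70, moved most. Hspa1b (chromosome 17, 34956436 to 34959238) stood at 119, 30.0, 98.0 and 25.4 CPM in MDKO replicates 1 to 4 and at 6.76, 8.25, 6.77 and 17.7 in NFATc3-MKO replicates 1 to 4. All MDKO livers lay above all NFATc3-MKO livers, and MDKO replicates 1 and 3 stood far above replicates 2 and 4 (log2 change 2.78 ± 0.75 SE, edgeR adjusted p = 0.0354). The Lyz2-Cre livers of the same numbers stood at 118, 21.2, 110 and 21.4 CPM, with the same 2 replicates high, and the ASK1-MKO mean was 12.1. Hspa1a (chromosome 17, 34969190 to 34972156) rose by 2.21 ± 0.60 (adjusted p = 0.0352), from 1.03 to 2.78 CPM in NFATc3-MKO livers to 2.79 to 13.0 in MDKO livers, so the nearest livers of the groups almost touched.

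Because Hspa1a and Hspa1b share nearly all their sequence, reads can be split between them, and the counts of each are uncertain. Their promoters show the same likeness. The sequences below are the 130 bases before the start of 4 of the 10 called genes, shown because each holds a core heat shock element, GAANNTTC or TTCNNGAA, in capitals. They are from RefSeq on GRCm38.p6, 5′ to 3′ on the gene's strand: Hspa1a at chr17:34972157-34972286, minus strand; Hspa1b at chr17:34959239-34959368, minus strand; Dnaja1 at chr4:40722338-40722467, plus strand; Hsph1 at chr5:149636337-149636466, minus strand.
Hspa1a: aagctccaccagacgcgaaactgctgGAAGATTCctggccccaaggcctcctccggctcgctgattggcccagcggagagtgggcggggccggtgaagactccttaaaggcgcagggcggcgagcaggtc
Hspa1b: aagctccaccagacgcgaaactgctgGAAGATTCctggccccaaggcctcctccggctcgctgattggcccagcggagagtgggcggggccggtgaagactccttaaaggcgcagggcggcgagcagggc
Dnaja1: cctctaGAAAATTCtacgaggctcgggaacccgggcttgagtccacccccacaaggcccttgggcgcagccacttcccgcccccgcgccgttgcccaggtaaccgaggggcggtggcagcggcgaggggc
Hsph1: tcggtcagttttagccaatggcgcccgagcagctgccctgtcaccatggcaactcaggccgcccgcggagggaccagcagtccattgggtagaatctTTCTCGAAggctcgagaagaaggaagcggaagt
The windows of Hspa1a and Hspa1b are identical at 129 of 130 bases, and in both the element begins 104 bases before the start. It begins 124 bases before the start of Dnaja1 and 33 before that of Hsph1. Searched on both strands over the 250 bases before the start, either form (each reads as itself on the other strand) was found in 12.8% of all 32851 windows. By gene, 14.5% of all 27025 genes with a window held a match. A match was found in 7 of the 11 genes of the list that have a window and in 4 of the 7 of those that were called. A match is a run of letters, not a bound site.

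Among the chaperones that act without stress as well, Hspa8, the constitutive HSC70, stood at 2910, 2050, 3520 and 2300 CPM in MDKO replicates 1 to 4 and at 1090, 1250, 1480 and 1450 in NFATc3-MKO replicates 1 to 4, again without overlap (1.03 ± 0.19, edgeR adjusted p = 0.00553). Dnaja1, a cochaperone of HSP70, rose from 234 to 280 CPM to 376 to 475 (0.75 ± 0.14, adjusted p = 0.0051). Chordc1, a cochaperone of HSP90, rose by 1.25 ± 0.25, the stress-inducible HSP90 gene Hsp90aa1 by 1.15 ± 0.25 and the constitutive Hsp90ab1 by 0.54 ± 0.15. Hsph1, an exchange factor for HSP70, rose by 1.28 ± 0.35 and Dnajb1 by 0.88 ± 0.26. Cirbp, an RNA-binding protein known to rise in the cold and fall in heat, went the other way. It stood at 9.20, 9.49, 3.57 and 11.2 CPM in MDKO replicates 1 to 4 and at 29.7, 15.4, 23.9 and 17.6 in NFATc3-MKO replicates 1 to 4 (−1.33 ± 0.32, adjusted p = 0.0218). Hsf1 itself (0.17), the other cold-inducible gene Rbm3 (−0.45, adjusted p = 0.073), the mitochondrial chaperones Hspd1 (0.23) and Hspe1 (0.25), and Hspb1 (0.83) and Bag3 (0.43) did not pass.

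Only Hspa8, Dnaja1 and Chordc1 kept their calls whichever of the 8 livers was left out. Without MDKO replicate 3 the calls of Hsp90aa1, Hsph1, Hspa1a, Hspa1b, Hsp90ab1, Dnajb1 and Cirbp were lost (edgeR adjusted p = 0.0581, 0.131, 0.0892, 0.0898, 0.146, 0.136 and 0.0627), leaving 3 of the list. Hspa1a and Hspa1b also lost theirs without MDKO replicate 1 (0.0931 and 0.079) and without NFATc3-MKO replicate 1, 2 or 3 (0.0631 to 0.0983 for Hspa1a and 0.069 to 0.103 for Hspa1b). By voom, which gives less weight to libraries that vary more, they stood at 1.11 and 1.67 and did not pass (limma adjusted p = 0.226 and 0.114). Without NFATc3-MKO replicate 1 and MDKO replicate 3 together, 2 of the list were called, and a fit of these 8 livers alone called 6.

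Among the pathway lists, the genes of the circadian clock had the next largest share of calls. The clock runs on activators (BMAL1 and CLOCK) that switch on their own repressors (the PER and CRY proteins) through E-boxes, while the REV-ERB nuclear receptors (Nr1d1, Nr1d2) repress Bmal1. Of 21 clock and clock output genes tested, 5 rose and 4 fell, with a median log2 change of −0.27. Among the repressors, Cry1 stood at 19.2, 18.5, 28.8 and 23.6 CPM in MDKO replicates 1 to 4 and at 11.2, 9.38, 10.0 and 12.2 in NFATc3-MKO replicates 1 to 4, without overlap (1.06 ± 0.17, edgeR adjusted p = 0.00309). Per2 rose from 25.4 to 31.8 CPM to 37.1 to 49.8 (0.62 ± 0.14, adjusted p = 0.0138), whereas Per1 (−0.42), Per3 (−0.64) and Cry2 (−0.27) did not pass. Of the activators, Bmal1 stood at 1.39, 1.31, 5.18 and 2.75 CPM in MDKO replicates 1 to 4 and at 0.773, 1.59, 0.555 and 0.534 in NFATc3-MKO replicates 1 to 4. Its groups overlapped and it did not pass (1.54 ± 0.53, adjusted p = 0.081), nor did Clock (0.59).

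The receptor and output genes held the strongest contrasts. Nr1d1, which encodes REV-ERB alpha, stood at 9.39, 9.58, 5.64 and 7.33 CPM in MDKO replicates 1 to 4 and at 23.0, 29.9, 22.0 and 14.8 in NFATc3-MKO replicates 1 to 4. No liver of one group reached the other (−1.47 ± 0.29, edgeR adjusted p = 0.00838). Nr1d2, its close relative, fell by 0.80 ± 0.17 on the log2 scale. Nfil3, a repressor that competes with DBP for its sites, rose from 3.90 to 6.88 CPM to 10.7 to 30.3 (1.97 ± 0.39, adjusted p = 0.00766). Dbp, the output activator, went from 47.8 to 67.5 CPM to 11.7 to 38.0 (−1.07 ± 0.31, adjusted p = 0.0452). The paired repressors Bhlhe40 and Bhlhe41 parted: Bhlhe40 rose by 0.61 ± 0.17 and Bhlhe41 fell by 1.77 ± 0.43 on the log2 scale.

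The palindromic E-box CACGTG, in capitals, is shown for Cry1 (chr10:85185055-85185184, minus strand) and Bhlhe41 (chr6:145865464-145865593, minus strand), called clock genes that moved in opposite directions and both hold it. The sequences are from RefSeq on GRCm38.p6, 5′ to 3′, over the 130 bases before the start of Cry1 and the bases from 173 to 44 before the start of Bhlhe41.
Cry1: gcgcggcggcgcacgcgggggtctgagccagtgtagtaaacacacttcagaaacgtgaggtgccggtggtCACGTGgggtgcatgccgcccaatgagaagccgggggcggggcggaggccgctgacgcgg
Bhlhe41: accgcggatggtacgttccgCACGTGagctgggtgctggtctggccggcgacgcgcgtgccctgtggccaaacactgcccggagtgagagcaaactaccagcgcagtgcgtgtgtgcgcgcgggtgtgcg
The E-box begins 60 bases before the start of Cry1 and 153 before that of Bhlhe41. Searched over 250 bases on both strands, on which it reads the same, it was found in 6.02% of all windows. By gene, it was found in 6.86% of all genes that have a window and in 5 of the 17 clock genes that have one. Of the 6 called clock genes with a window, Cry1 and Bhlhe41 held it, and these 2 differ in direction.

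Cry1, Nr1d1, Nr1d2 and Nfil3 kept their calls whichever liver was left out. With only the 8 livers in the fit Nr1d2 lost its call (edgeR adjusted p = 0.0542), and 6 of the list were called. Bhlhe40 lost its call without any 1 of the 8 livers (edgeR adjusted p = 0.0502 to 0.0987), and Dbp without any 1 other than NFATc3-MKO replicate 1 or MDKO replicate 1 (0.0578 to 0.12). Per2 lost its call without MDKO replicate 3 (0.053) or 4 (0.0602), and Bhlhe41 without either of these (0.0767 and 0.0842) or NFATc3-MKO replicate 2 (0.0549) or 3 (0.0543). Without NFATc3-MKO replicate 1 and MDKO replicate 3 together, 4 of the list were called. The labels give a light and dark cycle but no hour of collection, so a difference in that hour and a difference by genotype cannot be told apart.

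**Figure D3:**
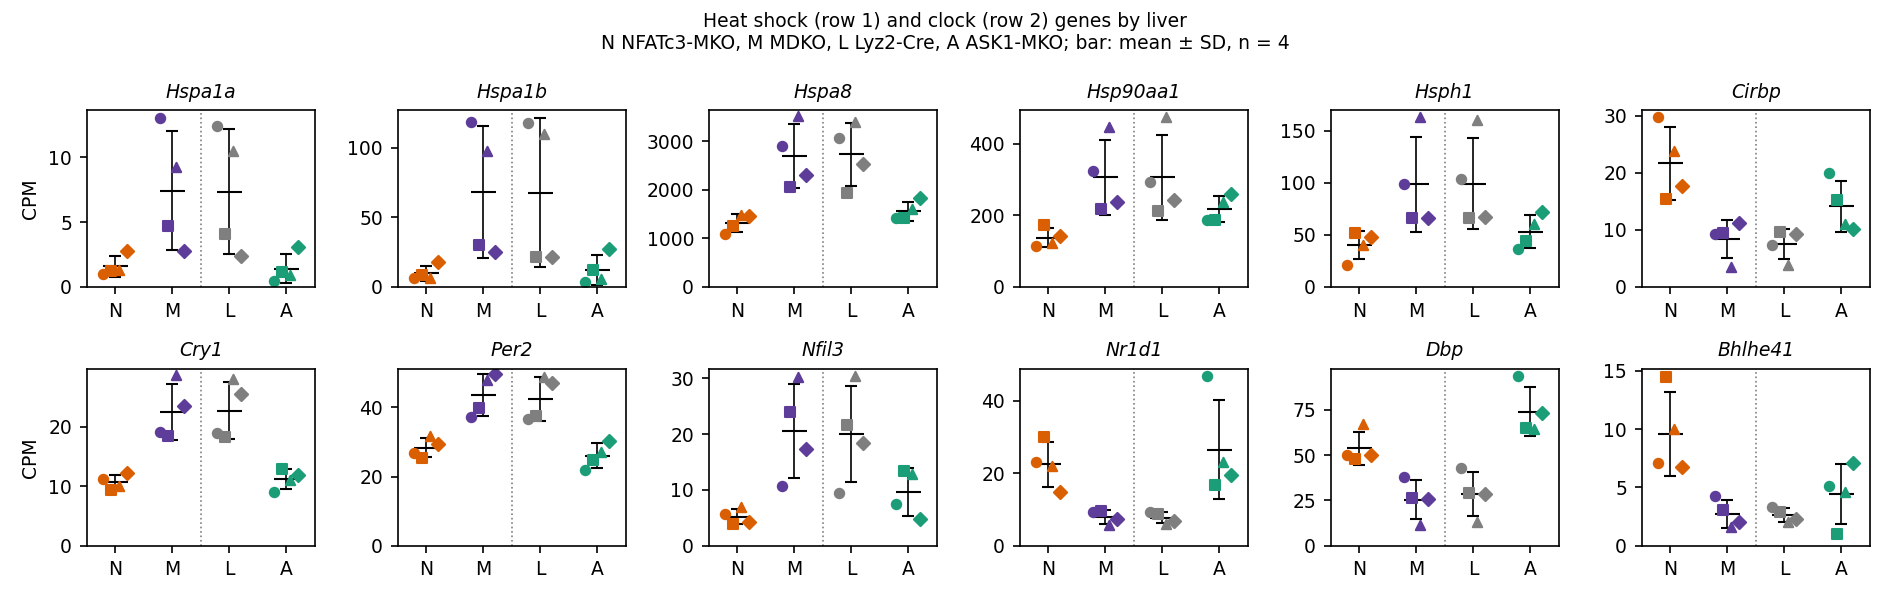
CPM of 6 heat shock or cold-inducible genes (top) and 6 clock genes (bottom) in every liver, with circles, squares, triangles and diamonds for replicates 1 to 4 and bars for the mean ± SD of 4 livers, each y axis starting at 0. NFATc3-MKO (N) and MDKO (M) livers do not overlap in any of the 12 genes shown, all of them picked from the called genes. In the full lists, 10 of 16 heat shock and cold-inducible genes and 11 of 21 clock genes did not overlap, against 12.7% of all genes. Lyz2-Cre (L) and MDKO replicates with the same symbol lie at like heights, as for Hspa1b at 118 and 119 CPM in replicate 1.

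Steroid-related genes with a sex bias in mouse liver included the largest fall and the largest rise among the named genes, those of Sult2a3 and Slco1a1. SULT2A enzymes attach sulfate to hydroxysteroids and bile acids and are higher in females. Of 26 female-biased genes tested, 2 rose and 4 fell (median 0.13), and all 4 that fell were Sult2a genes. Sult2a3 (chromosome 7, 14067446 to 14123044) stood at 3.01, 3.97, 1.50 and 3.29 CPM in MDKO replicates 1 to 4 and at 35.0, 27.4, 27.0 and 41.0 in NFATc3-MKO replicates 1 to 4. The NFATc3-MKO livers lay together, replicate 1 included, far above the MDKO livers (−3.41 ± 0.35, edgeR adjusted p = 0.000271). Sult2a2 went from 20.5 to 77.0 CPM to 5.41 to 16.6 (−2.29 ± 0.47, adjusted p = 0.00937), Sult2a5 from 2.29 to 5.47 CPM to 0.370 to 1.10 (−2.38 ± 0.39) and Sult2a1 from 1.45 to 7.29 CPM to 0.541 to 1.11 (−1.93 ± 0.45, −1.17 without NFATc3-MKO replicate 3). These genes are close paralogs that can share reads, so how the fall divides among them is uncertain. Cyp3a41a, another female-biased gene with close paralogs, overlapped between the groups and did not pass (−1.60 ± 0.75, adjusted p = 0.189).

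Cyp17a1, which makes androgen and glucocorticoid precursors, rose instead. It stood at 12.4, 11.5, 12.4 and 10.2 CPM in MDKO replicates 1 to 4 and at 1.71, 1.82, 2.15 and 2.92 in NFATc3-MKO replicates 1 to 4, with both groups tight and far apart (2.43 ± 0.34, edgeR adjusted p = 0.00219). Of 31 male-biased genes 6 rose and none fell (median 0.08). Slco1a1, a transporter of organic anions and steroid conjugates, stood at 10.5, 11.5, 21.5 and 26.1 CPM in MDKO replicates 1 to 4 and at 5.70, 0.870, 1.11 and 1.32 in NFATc3-MKO replicates 1 to 4, where replicate 1 lay nearest the MDKO livers (2.92 ± 0.52, adjusted p = 0.005, and 3.97 without that replicate). Bcl6, a repressor known to hold down female-biased genes in male liver, rose by 1.20 ± 0.30 (adjusted p = 0.0242), with NFATc3-MKO replicate 2 at 7.45 CPM inside the MDKO range of 7.16 to 17.4. The classic male genes of the major urinary protein family (8 in the list, among them Mup20 at −0.35), Cyp4a12a (−0.36) and Hsd3b5 (0.43) did not pass, nor did the female genes Cyp2b9 (0.30) and Cux2 (0.22). Sult2a1, Bcl6 and Prlr, the prolactin receptor gene (0.71 ± 0.19), lost their calls without at least 1 liver (largest edgeR adjusted p = 0.0756, 0.109 and 0.102, each without MDKO replicate 4), whereas Sult2a2, Sult2a3, Sult2a5, Cyp17a1 and Slco1a1 kept theirs.

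Genes that lengthen and desaturate fatty acids included 5 that rose. FADS1 and FADS2 insert the double bonds of polyunsaturated fatty acids, ELOVL2 and ELOVL5 lengthen those acids, and SCD1 makes oleate. Of 17 desaturase and elongase genes, 5 rose, none fell and 12 did not pass, with a median log2 change of 0.23; voom called 5 higher and 2 lower. Fads2 stood at 1440, 1430, 1470 and 1490 CPM in MDKO replicates 1 to 4 and at 704, 681, 670 and 985 in NFATc3-MKO replicates 1 to 4, without overlap (0.94 ± 0.17, edgeR adjusted p = 0.00504). Fads1 rose from 404 to 474 CPM to 665 to 797 (0.76 ± 0.13) and Elovl2 from 252 to 365 CPM to 482 to 588 (0.81 ± 0.17). Elovl5 rose by 0.78 and Scd1 by 1.66 ± 0.35. These calls of Fads1, Fads2, Elovl2 and Scd1 were kept whichever liver was left out.

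In the synthesis of fatty acids and triglycerides, 2 of 18 genes rose and 2 fell (median 0.36). Fasn, the fatty acid synthase, stood at 519, 557, 978 and 932 CPM in MDKO replicates 1 to 4 and at 114, 203, 157 and 476 in NFATc3-MKO replicates 1 to 4 (1.65 ± 0.48, edgeR adjusted p = 0.0473). That call was lost without any 1 liver other than NFATc3-MKO replicate 4 (0.0535 to 0.138), and with no filter on low counts (0.0941). Mlxipl, the gene for the carbohydrate-responsive factor ChREBP, fell by 0.56 ± 0.15 on the log2 scale and Lpin2, a phosphatidate phosphatase, by 0.77 ± 0.20 (0.50 without NFATc3-MKO replicate 1). Both lost their calls without several livers (largest adjusted p = 0.0976 and 0.0925, without MDKO replicate 4). Srebf1 (0.56, adjusted p = 0.095), Acly (0.94, 0.094) and Acaca (0.51, 0.34) did not pass.

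Of 21 bile acid genes 2 rose (9.52%, against 7.35% of all genes tested), Slco1a1 and Cyp7a1. The enzyme of Cyp7a1 opens the conversion of cholesterol to bile acids at its slowest step. Cyp7a1 stood at 302, 273, 341 and 444 CPM in MDKO replicates 1 to 4 and at 216, 90.5, 77.0 and 154 in NFATc3-MKO replicates 1 to 4 (1.34 ± 0.33, adjusted p = 0.0232), and lost its call without NFATc3-MKO replicate 2 or 3 or MDKO replicate 3 or 4 (0.057 to 0.0815). Among fatty acid oxidation genes and targets of PPAR alpha, 1 of 24 rose and 1 fell (8.33%, against 7.35% of all genes tested). Fabp1, the liver fatty acid-binding protein, rose by 1.24 ± 0.23, and Angptl4, a secreted inhibitor of lipoprotein lipase, fell by 1.04 ± 0.16 on the log2 scale, and both kept their calls whichever liver was left out.

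Of 19 transcription factors of hepatocyte identity, 6 rose and none fell (median 0.19), and with a fit of these 8 livers alone 2 were called. Hnf4a, a master regulator of hepatocyte genes, stood at 417, 503, 464 and 518 CPM in MDKO replicates 1 to 4 and at 372, 307, 312 and 298 in NFATc3-MKO replicates 1 to 4, without overlap (0.56 ± 0.11, edgeR adjusted p = 0.00623). Nr1i3, the xenobiotic receptor CAR, rose by 0.96 ± 0.19, Foxa3 by 1.21 ± 0.27, Gata4 by 0.65 ± 0.14, Prox1 by 0.73 and Nr5a2 by 0.50. Cebpa (0.10) and Foxa2 (0.65, adjusted p = 0.09) did not pass. Of 15 hepatocyte markers, 2 rose, Hnf4a among them, and none fell (median 0.41). Foxa3 lost its call without MDKO replicate 4 (edgeR adjusted p = 0.0577), and with only the 8 livers in the fit Hnf4a lost its call too (0.0594).

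Resident and recruited macrophages were read from separate marker lists, which were not tested against each other. Of 11 Kupffer cell markers 4 rose and none fell, with a median log2 change of 0.75 and summed levels of 307 to 658 CPM in MDKO livers and 267 to 338 in NFATc3-MKO livers. A fit of these 8 livers alone called 1 of them. Summed markers of sinusoidal endothelium stood at 256, 435, 365 and 448 CPM in MDKO replicates 1 to 4. In NFATc3-MKO replicates 1 to 4 the sum was 350, 247, 242 and 264. MDKO replicate 1 was low and NFATc3-MKO replicate 1 high, as in the Kupffer cell genes below. Of 13 of these markers 1 rose by edgeR (7.69%, against 7.35% of all genes tested), Clec4g, by 0.66 (edgeR adjusted p = 0.0427). That call was lost without any 1 liver other than replicate 1 of either group (0.0739 to 0.125). At an unadjusted p under 0.05, 7 of the 13 were higher, against 3492 of all 13309 genes in either direction. By voom 8 were called, against 2653 of all genes, and the median was 0.49. The part of these endothelial markers in the Kupffer cell result was not tested. Clec4f, a lectin found on Kupffer cells, stood at 41.0, 122, 89.7 and 125 CPM in MDKO replicates 1 to 4 and at 52.3, 24.1, 32.3 and 43.4 in NFATc3-MKO replicates 1 to 4 (1.31 ± 0.30, edgeR adjusted p = 0.017). Cd163, the haptoglobin-haemoglobin receptor, stood at 9.34, 27.4, 24.8 and 28.1 CPM in MDKO livers and at 12.0, 2.38, 5.07 and 4.99 in NFATc3-MKO livers in the same order (1.86 ± 0.45, adjusted p = 0.0209). In both genes MDKO replicate 1 was lower than NFATc3-MKO replicate 1, and the other MDKO livers lay above all NFATc3-MKO livers. Nr1h3, the lipid sensor LXR alpha, rose by 0.43 ± 0.11 and the complement gene C6, which hepatocytes also express and which is in the male-biased list too, by 1.00 ± 0.15. Timd4 (1.31, adjusted p = 0.063), Folr2 (1.14, 0.075), Vsig4 (0.75, 0.087) and Marco (−0.03) did not pass. C6 kept its call throughout. Clec4f lost its call without NFATc3-MKO replicate 3 (0.0568) or MDKO replicate 4 (0.0678), Nr1h3 without NFATc3-MKO replicate 2 (0.0516) or MDKO replicate 3 or 4 (0.0514 and 0.0827), and Cd163 without NFATc3-MKO replicate 3 or 4 or MDKO replicate 2, 3 or 4 (0.0527 to 0.0759).

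Of 14 genes that mark macrophages derived from monocytes or laden with lipid, 2 fell and none rose (median −1.18). They were Gpnmb, at 9.76, 22.8, 15.1 and 14.6 CPM in MDKO replicates 1 to 4 and 13.2, 386, 55.4 and 70.1 in NFATc3-MKO replicates 1 to 4 (−3.07 ± 0.87, edgeR adjusted p = 0.0428), and Spp1, the osteopontin gene, at 161, 53.9, 70.1 and 69.1 against 85.2, 322, 366 and 290 (−1.58 ± 0.46, 0.0457). In both genes NFATc3-MKO replicate 1 lay within the MDKO range and the other 3 livers of its group above it. Gpnmb was −1.55 without NFATc3-MKO replicate 2, and both calls were lost without that liver (adjusted p = 0.188 and 0.0919), NFATc3-MKO replicate 3 (0.0614 and 0.13) or MDKO replicate 2 (0.0637 and 0.108), 3 (0.107 and 0.132) or 4 (0.118 and 0.143). Gpnmb also lost its call without MDKO replicate 1 (0.0907) and Spp1 without NFATc3-MKO replicate 4 (0.0764). Without NFATc3-MKO replicate 1, 11 of the 14 were called, and with a fit of these 8 livers alone or with no filter on low counts 0 were. Spp1 also marks bile duct cells, and 2 of 10 of their markers fell, Spp1 and Prom1 (−1.05, adjusted p = 0.0455, a call lost without any 1 liver other than replicate 1 of either group, 0.0758 to 0.132; median of the list −0.89). The 9 bile duct markers other than Spp1 summed to 50.2, 21.7, 24.3 and 25.2 CPM in MDKO replicates 1 to 4 and to 26.3, 55.3, 59.6 and 57.2 in NFATc3-MKO replicates 1 to 4, and replicate 1 was the highest MDKO and the lowest NFATc3-MKO liver, as for Spp1. Their part in the Spp1 result was not tested. Trem2 (−1.11), Lgals3 (−1.73, 0.06) and Ccr2 (−1.20) did not pass. None of 15 macrophage markers shared by both kinds passed by edgeR, with 3 at an unadjusted p under 0.05 and 0 called by DESeq2 or voom (median −0.11), among them Csf1r (0.21), Cd68 (−0.45) and Lyz2 (−1.29, adjusted p = 0.122). By DESeq2 and voom, 5 and 5 of the 14 monocyte-derived or lipid-laden macrophage genes were called.

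Neutrophil markers were low in every liver, with 6 of the 13 past the filter and summed levels of 3.93 to 11.6 CPM in MDKO livers and 9.69 to 51.0 in NFATc3-MKO livers. S100a8, S100a9 and Retnlg fell and none rose (median −1.93). The filter can be passed through the higher group alone, so the share and median of these 6 give no separate support. With only the 8 livers in the fit 0 were called. There the edgeR adjusted p was 0.0542 for S100a8 and 0.0688 for S100a9, and Retnlg did not pass the filter. S100a8, a subunit of the granulocyte protein calprotectin, stood at 0.601, 2.41, 0.461 and 0.708 CPM in MDKO replicates 1 to 4 and at 2.41, 14.1, 6.58 and 4.70 in NFATc3-MKO replicates 1 to 4 (−2.64 ± 0.66, edgeR adjusted p = 0.0246). MDKO replicate 2 and NFATc3-MKO replicate 2 were the highest of their groups, and the change was −2.01 without the latter and −3.50 without the former. Its call and that of its partner S100a9 (−2.73 ± 0.67) were lost without NFATc3-MKO replicate 2 (0.0659 and 0.0622) or 3 (0.0541 for both) or MDKO replicate 1 (0.0585 and 0.0538), 3 (0.079 and 0.0722) or 4 (0.0947 and 0.0897). For S100a9 these changes were −2.03 and −3.71, and for Retnlg the change was −2.39 with all livers and −3.26 without MDKO replicate 2. Retnlg lost its call without the same 5 livers (0.0543 to 0.102). The immunoglobulin genes Igkc (−1.63 ± 0.37) and Jchain (−1.14 ± 0.32) fell, 2 of 9 B and plasma cell markers, and no T or NK cell marker of 14 and no dendritic cell marker of 10 passed by edgeR, with 3 and 2 at an unadjusted p under 0.05, 0 and 0 called by DESeq2 and 1 and 1 by voom. The Igkc call was lost without NFATc3-MKO replicate 3 or MDKO replicate 3 or 4 (0.055 to 0.0619), and that of Jchain without any 1 liver other than NFATc3-MKO replicate 1 and MDKO replicate 1 (0.0512 to 0.118).

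Of 31 collagen and matrix genes, Eln, Timp1 and Col4a2 fell and none rose, with a median log2 change of −0.92 against −0.03 over all genes. The share called was 9.68%, against 7.35% of all genes tested, and a fit of these 8 livers alone called 0. Eln, which encodes elastin, stood at 3.33, 1.02, 2.07 and 2.25 CPM in MDKO replicates 1 to 4 and at 1.93, 20.5, 13.7 and 17.0 in NFATc3-MKO replicates 1 to 4 (−2.61 ± 0.53, edgeR adjusted p = 0.00872). Lox, which cross-links collagen and elastin, stood at 0.555, 0.491, 0.691 and 0.666 CPM against 0.612, 11.8, 3.85 and 5.42 in the same order (−3.18 ± 0.67, adjusted p = 0.0102). NFATc3-MKO replicate 1 lay among the MDKO livers in both genes, and the other 3 were higher than every MDKO liver. Lox was −2.45 without NFATc3-MKO replicate 2. Without NFATc3-MKO replicate 1, 20 of the 31 matrix genes were called, without NFATc3-MKO replicate 2 or 4 or MDKO replicate 3 or 4 only 1, and by DESeq2 and voom 11 and 17, with none higher by voom. Col1a1 (−2.10, adjusted p = 0.064), Col1a2 (−1.66, 0.062) and Col3a1 (−1.74, 0.086), the fibrillar collagens of scar, did not pass with all livers. Tagln (−1.28 ± 0.31) and Acta2 (−1.24 ± 0.32), markers of myofibroblasts, fell, 2 of 13 stellate cell and myofibroblast markers. Acta2 stood at 2.54 CPM in NFATc3-MKO replicate 1, within the MDKO range of 1.84 to 3.19. Of 23 genes of cross-linking and TGF-beta signalling 3 fell and none rose, Lox and Ltbp2 (−2.45 ± 0.72) among them. Eln and Lox kept their calls with any 1 liver left out but not with only the 8 livers in the fit (0.0542 and 0.0504). Every other gene named here as fallen lost its call without MDKO replicate 3 (0.0588 to 0.116), without MDKO replicate 4 (0.057 to 0.145) and without at least 1 NFATc3-MKO liver.

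**Figure D4:**
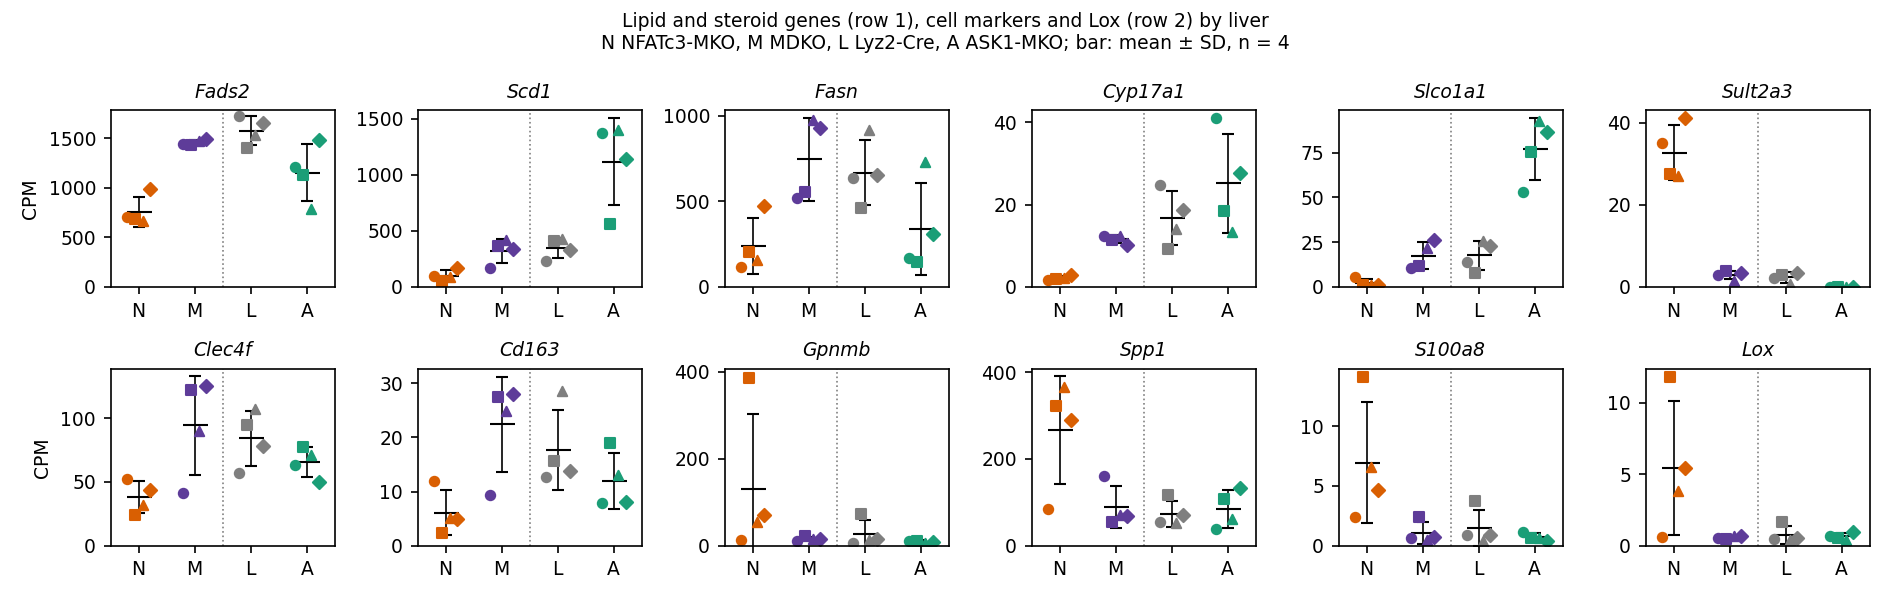
CPM of 6 genes of lipid and steroid metabolism (top) and of macrophage and neutrophil markers and Lox (bottom) in every liver, with circles, squares, triangles and diamonds for replicates 1 to 4 and bars for the mean ± SD of 4 livers, each y axis starting at 0. All genes shown were picked from the called genes. In the top row NFATc3-MKO (N) and MDKO (M) livers do not overlap, whereas in Clec4f, Cd163, Gpnmb, Spp1 and Lox NFATc3-MKO replicate 1 (circle) lies within the MDKO range.

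The pathways that carry the targeted genes were described next. Of 19 NFAT factors, calcineurin subunits and their regulators, 2 rose and 1 fell (median −0.01). Rcan1, an inhibitor of calcineurin that is itself a classic target of NFAT, stood at 50.6, 51.5, 72.7 and 54.9 CPM in MDKO replicates 1 to 4 and at 16.5, 23.1, 18.2 and 23.1 in NFATc3-MKO replicates 1 to 4. Every MDKO liver lay above every NFATc3-MKO liver (1.50 ± 0.22, edgeR adjusted p = 0.00262). Its relative Rcan2 rose from 1.13 to 2.15 CPM to 4.35 to 6.56 (1.64 ± 0.26, adjusted p = 0.00279), and both calls were kept whichever liver was left out. Ppp3ca, the catalytic subunit of calcineurin, fell by 0.52 ± 0.14 on the log2 scale (adjusted p = 0.0386), a call lost without NFATc3-MKO replicate 3 or MDKO replicate 2, 3 or 4 (0.0645 to 0.119). Nfatc1 (0.03), Nfatc2 (−0.97) and Nfatc4 (−0.08) did not pass.

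Of 25 genes of ASK1 and the stress kinases, 2 rose and 1 fell (median −0.04), 12% against 7.35% of all genes tested. Mapk14, which encodes p38 alpha, rose by 0.54 ± 0.13 (edgeR adjusted p = 0.0235) and Dusp16, a phosphatase that acts on JNK, by 0.97 ± 0.28 (0.0433). Txnip, which binds thioredoxin, stood at 77.0, 111, 88.8 and 92.0 CPM in MDKO replicates 1 to 4 and at 325, 158, 176 and 168 in NFATc3-MKO replicates 1 to 4, with NFATc3-MKO replicate 1 the highest (−1.17 ± 0.29, 0.0235). The kinases between ASK1 and its outputs, Map2k3 (−0.15), Map2k4 (−0.15), Map2k6 (−0.05) and Map2k7 (−0.28), and Mapk8 (−0.32), which encodes JNK1, did not pass. All 3 calls were lost without MDKO replicate 3 (0.0818, 0.112 and 0.0726 for Mapk14, Dusp16 and Txnip) and without MDKO replicate 4 (0.0759, 0.134 and 0.0751). Dusp16 lost its call without any 1 liver other than MDKO replicate 1, Mapk14 also without NFATc3-MKO replicate 3 (0.0581) and Txnip also without MDKO replicate 1 (0.0501).

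The same loss of ASK1 was then set against that on the background with myeloid NFATc3, ASK1-MKO minus Lyz2-Cre. These comparisons share no library, but the MDKO livers resembled the Lyz2-Cre livers of the same number, as given above. On the Lyz2-Cre background 593 genes rose and 533 fell (1126, 8.46%). Of all calls, 264 genes were called in both, 27% of those in MDKO minus NFATc3-MKO and 23.4% of those in ASK1-MKO minus Lyz2-Cre. Only 23 of the 264 moved in the same direction, and 241 moved in opposite directions. Where MDKO and Lyz2-Cre livers hold like values, the directions are opposite whenever NFATc3-MKO and ASK1-MKO livers lie on the same side of both. The split therefore cannot be read as an effect of ASK1 loss apart from that likeness. The difference between the 2 changes was called in 2153 genes (16.2%), positive in 1088 and negative in 1065, and 746 of the 978 genes were among them. The fit took all livers as independent. MDKO and Lyz2-Cre livers enter this difference with the same sign and deviated together by number, so its SE and p may be too small.

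Heat shock and clock genes were among those that moved in opposite directions. Hspa1b changed by 2.78 ± 0.75 between MDKO and NFATc3-MKO livers and by −2.49 ± 0.74 between ASK1-MKO and Lyz2-Cre livers, a difference of 5.26 ± 1.05 (log2, edgeR adjusted p = 0.00343). For Hspa8 the changes were 1.03 ± 0.19 and −0.80 ± 0.19 (difference 1.84, adjusted p = 0.000387), and all 10 called members of the heat shock list had a called difference. For Nr1d1 they were −1.47 ± 0.29 and 1.78 ± 0.29 (difference −3.24, adjusted p = 0.000153) and for Cry1 1.06 ± 0.17 and −1.02 ± 0.17 (difference 2.08, 9.91e-05). Cyp7a1 changed by 1.34 ± 0.33 and by −1.70 ± 0.33 (difference 3.05, 0.000545), and Rcan1 by 1.50 ± 0.22 and −1.02 ± 0.22 (difference 2.52, 0.000139).

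Other genes did not follow that pattern. Slco1a1 rose on both backgrounds, by 2.92 ± 0.52 and 2.13 ± 0.47, and the difference between these did not pass (0.79, edgeR adjusted p = 0.467). Scd1 rose by 1.66 ± 0.35 and 1.68 ± 0.35 (difference −0.02, adjusted p = 0.988) and Cyp2c54, a drug-metabolising cytochrome, by 1.22 ± 0.27 and 2.31 ± 0.26 (−1.09, 0.0522). Sult2a2 fell on both, by 2.29 ± 0.47 and 4.63 ± 0.64 on the log2 scale (difference 2.33, 0.0569), and in the ASK1-MKO livers Sult2a3 and Sult2a5 held 3 counts or fewer in all, so no difference is given for them. Lox was −3.18 ± 0.67 and −0.22 ± 0.68 (difference −2.96, 0.043). Among the genes with the largest differences at a mean of at least 1 CPM, the phosphate transporter gene Slc34a2 stood at 1.87 ± 0.49 and −4.42 ± 0.62 (difference 6.29, 0.000139), the linker histone gene H1f3 at 1.86 ± 0.44 and −3.90 ± 0.50 (5.77, 8.94e-05) and Ppp1r3g, which promotes glycogen synthesis, at −0.86 ± 0.66 and 3.38 ± 0.68 (−4.24, 0.00624).

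**Figure D5:**
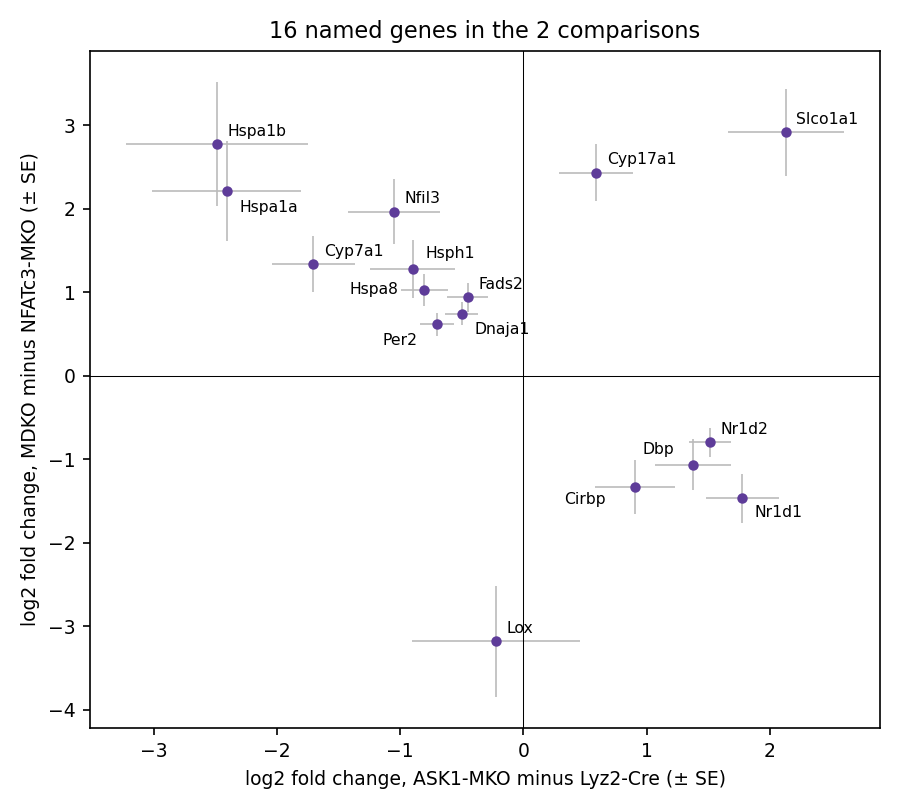
Log2 fold changes (± SE) of 16 genes chosen from the named genes after their values were seen, on the Lyz2-Cre background (x axis, ASK1-MKO minus Lyz2-Cre) and on the NFATc3-MKO background (y axis, MDKO minus NFATc3-MKO). Heat shock and cold-inducible genes, clock genes and Cyp7a1 lie in the upper left or lower right, whereas Slco1a1 (2.13 and 2.92) and Cyp17a1 (0.59 and 2.43) lie in the upper right.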

How the data were processed

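Messenger RNA of 16 livers was sequenced as directional libraries (dUTP second strand), per the labels' protocols. Reads were aligned to mm10 with HISAT2, per the submitters' processing notes; neither a counting program nor an annotation or strand setting is recorded there, so overlapping antisense genes and near-identical paralogs (Hspa1a and Hspa1b, the Sult2a, Ces1 and Cyp3a families) are uncertain. The deposited liver table holds estimated counts per gene, of which 85.42% were whole as written, and they were rounded to whole numbers. All 16 columns were used, and the macrophage tables were not used here. In R 4.3.3, edgeR 4.0.16 fitted its robust quasi-likelihood model to all 16 livers after filterByExpr and TMM scaling, with a call at a Benjamini-Hochberg adjusted p under 0.05 over 13309 genes. Fold changes are log2, SE is the log2 change divided by the square root of F, CPM uses TMM-scaled library sizes, and levels are not compared between genes. The script was tested on simulated data.

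The genes and the 34 pathway and 19 marker lists were chosen with earlier results of these data known, so the lists give no independent support. Named genes are the targeted genes, up to 12 of the largest called rises and falls at a mean of at least 1 CPM with groups that do not overlap, up to 4 called members per list, and the members of the clock and heat shock lists; further list members were named after their values were seen, and some genes that these rules pick are not reported here. Replicate numbers did not pair MDKO with NFATc3-MKO livers (correlations of same-numbered deviations −0.175, 0.284, −0.17 and 0.0361). Alternatives were RLE scaling, DESeq2 1.42.0, limma 3.58.1 voom with quality weights, other filters, thresholds and samples in the fit, a replicate block and each liver left out.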

Additional observations from a re-analysis of the deposited data

Results flagged for a closer look

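Single livers stood far from the others of their group in some values. The total count of MDKO replicate 3 was 8912117. Among 328 groups of 4 livers tested over the named genes, 27 had such a liver; chance gives about 1 in 20. In MDKO replicate 1 Dusp16 at 32.0, Elovl2 at 588 and Spp1 at 161 CPM lay apart from the other 3. In MDKO replicate 2 Atp5f1b at 1020, Cela2a at 0.491, Csn3 at 0.450, Cyp3a41a at 168, Dnaja1 at 376 and S100a8 at 2.41 CPM lay apart from the other 3. In MDKO replicate 4 Ces3b at 29.3 and Per1 at 23.1 CPM lay apart from the other 3. In NFATc3-MKO replicate 1 C6 at 19.4, Cry2 at 28.8, Cyp2c38 at 32.4, Per3 at 18.3, Slco1a1 at 5.70 and Txnip at 325 CPM lay apart from the other 3. In NFATc3-MKO replicate 2 Gpnmb at 386 CPM lay apart from the other 3. In NFATc3-MKO replicate 3 Cela1 at 10.7, Dbp at 67.5, Dnaja1 at 234, Hspb1 at 6.36, Isg15 at 22.2, Nfatc3 at 19.6 and Sult2a1 at 7.29 CPM lay apart from the other 3. In NFATc3-MKO replicate 4 Fads2 at 985 and Hspa1b at 17.7 CPM lay apart from the other 3.

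The change between MDKO and NFATc3-MKO livers differed from that between ASK1-MKO and Lyz2-Cre livers in 2153 genes by edgeR's test of the difference itself. The values below are that difference (log2), for the named genes in which it was called. The fit took the livers as independent although MDKO and Lyz2-Cre livers deviated together by number, so the p behind these calls may be too small. Among heat shock and cold-inducible genes, the difference stood for Hspa1b at 5.26, Hspa1a at 4.62, Hsph1 at 2.18, Hspa8 at 1.84, Hsp90aa1 at 1.64, Chordc1 at 1.54, Dnajb1 at 1.25, Dnaja1 at 1.25, Hsp90ab1 at 0.85 and Cirbp at −2.24. Among clock genes, the difference stood for Nfil3 at 3.02, Cry1 at 2.08, Per2 at 1.32, Bhlhe40 at 0.90, Nr1d1 at −3.24, Bhlhe41 at −2.52, Dbp at −2.44 and Nr1d2 at −2.31. Among lipid, cholesterol and bile acid genes, the difference stood for Cyp7a1 at 3.05, Fasn at 2.64, Fads2 at 1.39, Fads1 at 1.15, Mgll at 1.03, Lpin2 at −2.24, Angptl4 at −2.21 and Mlxipl at −1.51. Among steroid and sex-biased genes and cytochromes, the difference stood for Cyp3a41a at 5.74, Bcl6 at 2.73, Cyp17a1 at 1.84, Prlr at 0.98, C6 at 0.77 and Cyp1b1 at −1.77. Among hepatocyte genes and xenobiotic receptors, the difference stood for Ahr at 2.07, Foxa3 at 1.77, Nr1i3 at 1.57, Gata4 at 0.91, Gsta3 at 1.20 and Ces1d at 2.66. Among glucose and methionine metabolism, the difference stood for Fbp1 at 1.05, Pfkfb1 at 0.95, Mat1a at 1.11, Slc2a1 at −0.72, Mat2b at −1.20 and Ppp1r3g at −4.24. Among immune, macrophage and matrix genes, the difference stood for Cd163 at 2.42, Clec4f at 1.67, Nr1h3 at 0.67, Stat2 at 1.01, Irak4 at 0.92, Lox at −2.96, Igkc at −1.78 and Iigp1 at −1.17. Among stress kinase, calcineurin and immediate early genes, the difference stood for Rcan1 at 2.52, Jun at 1.51, Dusp16 at 1.40, Rcan2 at 1.39, Mapk14 at 0.79, Nr4a1 at −3.53, Txnip at −2.64, Gadd45b at −1.36 and Ppp3ca at −0.96. Among secretory pathway and retinoid genes, the difference stood for Rdh16 at 1.33, Manf at −1.95, Pdia4 at −1.15 and Stra6l at −0.64. For the remaining named genes it stood for Adam1a at −2.57, Fbf1 at −3.91, Fmn2 at −2.79, H1f3 at 5.77, Lgals4 at −2.42, Mcm4 at 1.19, Pnldc1 at −2.59, Rad51c at 2.85, Rfx4 at −3.32, Slc34a2 at 6.29, Sntg2 at 1.65, Zfp454 at 3.35 and Zfp493 at 2.40.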

How the results depend on the processing

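With 4 livers per group and 1 shallow library, the count of genes called between MDKO and NFATc3-MKO livers was 978 by edgeR. It was 1628 by DESeq2, 2653 by voom, 283 with only the 8 livers in the fit, 2006 at an adjusted p under 0.1 and 231 at 2-fold or more; it was 335 to 1423 with 1 liver left out, and 540 without NFATc3-MKO replicate 1 and MDKO replicate 3 together, a choice made after seeing the data. The lowest came without MDKO replicate 3 (335) and 4 (346) and the highest without NFATc3-MKO replicate 1, when 634 rose and 789 fell, so that 44.6% of calls were rises in place of 55.2%. With RLE scaling it was 965, with no filter 790 and with at least 1 CPM 1030. The fit with the replicate number as a block gave 1427 calls, and 2530 for the difference between backgrounds; the numbers do not pair these livers, and 1 of 4 MDKO livers correlated best with its own number. Between MDKO and Lyz2-Cre livers, which do deviate together by number, the block called 0 genes, as did every other fit run of these groups. That difference was called in 2153 genes, in 3753 by voom, 1006 at 2-fold or more and 1512 to 2291 with 1 liver left out, and a fit with only 2 groups could not give it. Nfatc3 passed by voom (0.34, limma adjusted p = 0.0266). Map3k5 changed sign by voom (0.063), without that pair of livers (0.20) and with 1 liver left out (−0.14 to 0.18). Among genes not called, so did Cela1 (−0.024 without the pair, −0.10 to 0.22 with 1 left out), Ciart (0.043 by voom) and Usp2 (0.073 by voom, 0.076 without the pair, −0.24 to 0.15 with 1 left out). With 1 left out, so did Ctsb (−0.18 to 0.0097), Irf8 (−0.51 to 0.076), Lck (−0.86 to 0.10), Mpeg1 (−0.46 to 0.20), Pparg (−0.29 to 0.073), Ppp1r3g (−1.24 to 0.050) and Rora (−0.047 to 0.29). None of the 122 called genes examined singly changed sign under any alternative run; calls were lost in 67 with only 8 livers in the fit, 67 without MDKO replicate 3, 12 without NFATc3-MKO replicate 1, 20 with no filter, 9 by voom, 5 with the block and 0 by DESeq2. The cause was not tested.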

Other observations

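Of 26 glycolysis and gluconeogenesis genes, 3 rose and 1 fell (median log2 change 0.12 against −0.03 over all genes). Fbp1, an enzyme of gluconeogenesis, rose by 0.98 ± 0.25 (edgeR adjusted p = 0.0249), a call lost without NFATc3-MKO replicate 2 or 3 or MDKO replicate 3 or 4 (0.0572 to 0.078). Of 26 genes of methionine, choline and one-carbon metabolism, 1 rose and 1 fell (median 0.24), 7.69% against 7.35% of all genes tested. Both encode parts of the enzymes that make S-adenosylmethionine. Mat1a, the catalytic subunit of the liver, stood at 4660, 4300, 5400 and 5450 CPM in MDKO replicates 1 to 4 and at 3120, 2430, 2470 and 3270 in NFATc3-MKO replicates 1 to 4 (0.81 ± 0.17, adjusted p = 0.00946). Mat2b, a regulatory subunit that pairs with the other catalytic form, fell by 0.75 ± 0.12 on the log2 scale (adjusted p = 0.00287), and Mat1a and Mat2b kept their calls whichever liver was left out.

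Of 15 carboxylesterase genes, which hydrolyse esters and drugs, 4 rose and 1 fell (median 0.49). Ces1d rose from 111 to 310 CPM to 404 to 661 (1.59 ± 0.37, edgeR adjusted p = 0.0167), a call lost without NFATc3-MKO replicate 3 or MDKO replicate 4 (0.0548 to 0.0571), and Ces4a fell by 2.42 ± 0.44 on the log2 scale at 0.230 to 3.78 CPM. Of 28 complement genes, C6, C8b and Mbl2 rose (median 0.28), 10.7% against 7.35% of all genes tested. C8b and Mbl2 each lost the call without several livers (0.0521 to 0.0813 and 0.0859 to 0.114). C8b stood at 71.7 CPM in NFATc3-MKO replicate 1, within the MDKO range of 70.2 to 99.9. No gene called was found among 27 of oxidative phosphorylation, 29 of lysosome and cathepsins or 14 of MHC class II by edgeR, with 2, 8 and 6 at an unadjusted p under 0.05, whereas voom called 0, 6 and 4 of these and DESeq2 0, 2 and 0. Over all 13309 genes, 3492 stood at an unadjusted p under 0.05, voom called 2653 and DESeq2 1628.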
